A study of Mus musculus with 62 samples.

Results

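The 10 genes described here are the mouse orthologs of human genes that carry common risk variants for late-onset Alzheimer's disease: Clu, Bin1, Picalm, Abca7, Sorl1, Cd2ap, Ptk2b, Mef2c, Fermt2 and Slc24a4. They were taken by gene symbol from the gene abundance tables of the study's long-RNA libraries, and all 10 were found among 53975 gene identifiers. No measured value entered the choice. Each gene's level was its TPM (a length-corrected share of the library's transcripts), summed per gene identifier and divided by a median-of-ratios factor for the library, written below as scaled TPM.

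Most Alzheimer's disease in old age runs with many common variants of small effect, and the genes near them fall into a few cell biological groups. Clusterin (Clu) is a secreted chaperone and apolipoprotein made mainly by astrocytes in the brain, and Abca7 is a membrane transporter that moves phospholipid across the membrane. Picalm brings clathrin to the plasma membrane, Bin1 bends membranes, Cd2ap links endocytic membranes to actin, and Sorl1 is a sorting receptor that carries the amyloid precursor protein between the endosome and the Golgi. Ptk2b is a calcium-responsive tyrosine kinase of neurons, Fermt2 (kindlin-2) activates integrins, Mef2c is a transcription factor of neurons and microglia, and Slc24a4 exchanges sodium for calcium and potassium.

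Hippocampus of APP NL-G-F mice, a knock-in strain whose own App gene carries a humanised amyloid beta sequence with familial Alzheimer mutations, was compared with hippocampus of C57BL/6J mice, called WT below. There were 3 APP NL-G-F libraries at each of 3, 6 and 12 months, 2 WT libraries at 3 months and 3 WT libraries at each of 6 and 12 months. HT-22, an immortalised mouse hippocampal cell line used here at passage 4, received an LNA (locked nucleic acid antisense oligonucleotide) for 24 h and a peptide at 30 uM, namely amyloid beta 42 or its reversed sequence. The 4 HT-22 groups were reverse peptide with scramble LNA (4 libraries), amyloid beta 42 with scramble LNA (4), reverse peptide with anti-Hsf1 LNA (3) and amyloid beta 42 with anti-Hsf1 LNA (3). The labels give 150 nM for the anti-Hsf1 LNA and 50 uM for the scramble LNA, so these arms also differ in the stated dose. The labels do not say which libraries came from separate animals or cultures, so p-values measure the spread between these libraries, which may be technical. They name no sex for the animals.

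Several libraries stood apart. All 9 APP NL-G-F libraries and both WT libraries at 3 months had Xist, the RNA that silences an X chromosome in female cells, at 70.6 to 137 scaled TPM, whereas the 6 WT libraries at 6 and 12 months had Xist at 0.264 to 0.518 and the Y-linked Ddx3y at 18.4 to 28.0. At 6 and 12 months genotype and this difference therefore cannot be told apart, while both groups at 3 months carried Xist. The same holds for WT age against 3 months and for any change of the genotype difference against 3 months. In APP NL-G-F replicate 1 at 3 months the summed thalamus markers reached 460 scaled TPM and the summed neuron markers 1778, against 42.0 to 158 and 2360 to 2868 in the other 16 libraries. Its oligodendrocyte markers, 2487, and choroid plexus markers, 2449, were also the highest. Replicates 2 and 3 of that group had summed immediate-early genes of 375 and 367, above the 87.8 to 210 of the other 15 hippocampal libraries. The summed striatum markers ran from 58.2 to 177 in the same group, against 41.9 to 60.1 over the other hippocampal groups. In HT-22 cells, amyloid beta 42 with scramble replicates 3 and 4 and reverse peptide with scramble replicate 4 had summed immediate-early genes of 1066 to 1245, against 127 to 200 in the other 11. Relative depth, the ratio of per-base coverage to FPKM in a library, was 1.42 to 3.04 in hippocampus and 0.72 to 2.6 in HT-22. Absolute read numbers are unknown here, so no counting intervals are given.

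The start regions of 4 members are shown because these genes divide the set: Picalm and Abca7 were measured in both hippocampus and HT-22 cells, whereas Sorl1 and Slc24a4 were listed at 0 in every HT-22 library. Each sequence holds the 250 bases before an annotated RefSeq start (GRCm38.p6), with CpG pairs in capitals.
Abca7, chr10:79996244-79996493, plus strand: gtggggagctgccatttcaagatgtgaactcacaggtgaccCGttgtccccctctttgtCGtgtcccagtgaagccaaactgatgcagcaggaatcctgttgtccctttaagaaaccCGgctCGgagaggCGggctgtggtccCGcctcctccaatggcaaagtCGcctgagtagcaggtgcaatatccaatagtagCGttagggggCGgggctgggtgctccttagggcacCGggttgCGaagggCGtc
Picalm, chr7:90129963-90130212, plus strand: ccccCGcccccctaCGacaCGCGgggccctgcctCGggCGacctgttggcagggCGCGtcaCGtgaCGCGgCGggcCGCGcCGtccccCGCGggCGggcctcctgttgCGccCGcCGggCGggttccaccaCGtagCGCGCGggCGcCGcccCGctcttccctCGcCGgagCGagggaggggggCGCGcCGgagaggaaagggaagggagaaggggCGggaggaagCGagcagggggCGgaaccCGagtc
Sorl1, chr9:42124298-42124547, minus strand: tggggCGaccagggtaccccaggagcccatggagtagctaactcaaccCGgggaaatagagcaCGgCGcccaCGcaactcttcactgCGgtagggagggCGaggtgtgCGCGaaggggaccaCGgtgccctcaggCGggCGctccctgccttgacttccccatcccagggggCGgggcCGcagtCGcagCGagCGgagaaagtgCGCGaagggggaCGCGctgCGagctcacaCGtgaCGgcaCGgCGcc
Slc24a4, chr12:102128477-102128726, plus strand: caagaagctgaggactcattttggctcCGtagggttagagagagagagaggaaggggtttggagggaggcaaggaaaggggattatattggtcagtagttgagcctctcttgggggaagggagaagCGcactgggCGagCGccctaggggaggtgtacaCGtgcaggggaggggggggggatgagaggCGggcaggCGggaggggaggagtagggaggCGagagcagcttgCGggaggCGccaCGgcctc
Over the same windows, CpG pairs numbered 39 for Picalm, 26 for Sorl1, 12 for Abca7 and 11 for Slc24a4, and the median of 32851 promoters in the table was 6. At the starts shown, the members listed at 0 in HT-22 thus lay on both sides of Abca7 in CpG content. Another annotated Sorl1 start, not shown, had 9 CpG pairs, below Abca7. Promoters were given for 7 of the 10 members (10 windows in all), including Cd2ap and Fermt2 with 31 CpG pairs each and Mef2c with 1, 6 and 4 at its 3 starts. Because the cell experiment targeted Hsf1, the heat shock transcription factor, all 10 windows were searched on both strands for GAANNTTC and TTCNNGAA, the core of its binding element, 2 forms that can overlap each other. None of the 10 held either, while 6.69% and 7.17% of all 32851 promoters did. The E-box CACGTG was present in the windows of Picalm, Slc24a4 and the Sorl1 start shown above, against 6.02% of all promoters. A match or its absence describes only these letters.

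In hippocampus the members spanned a wide range of levels on the TPM scale, which is corrected for length. Clu was the most abundant, at a median of 345 scaled TPM over 17 libraries (291 to 540), and lay above every other member in every library. Ptk2b followed at a median of 188 (73.7 to 229). Bin1 (median 71.4, 57.0 to 82.8), Picalm (65.5, 55.6 to 74.3), Sorl1 (64.2, 35.5 to 79.2), Mef2c (43.5, 22.4 to 128) and Fermt2 (34.9, 25.7 to 42.2) formed a middle group. Within it, neighbours in this order overlapped in range, and Ptk2b reached down into the range of Bin1 only through its lowest library. Slc24a4 (9.33, 7.75 to 13.1) and Cd2ap (8.78, 7.03 to 9.84) also overlapped with each other, and Abca7 was lowest at 3.20 (2.13 to 4.54). The coefficient of variation over the 17 libraries was smallest for Picalm, 7.52%, and Bin1, 8.65%, and largest for Mef2c, 55.2%. All 10 genes are protein-coding. Bin1, Sorl1 and Slc24a4 overlap an annotated gene on the opposite strand, and no label or file header says whether reads were assigned by strand.

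**Figure D1:**
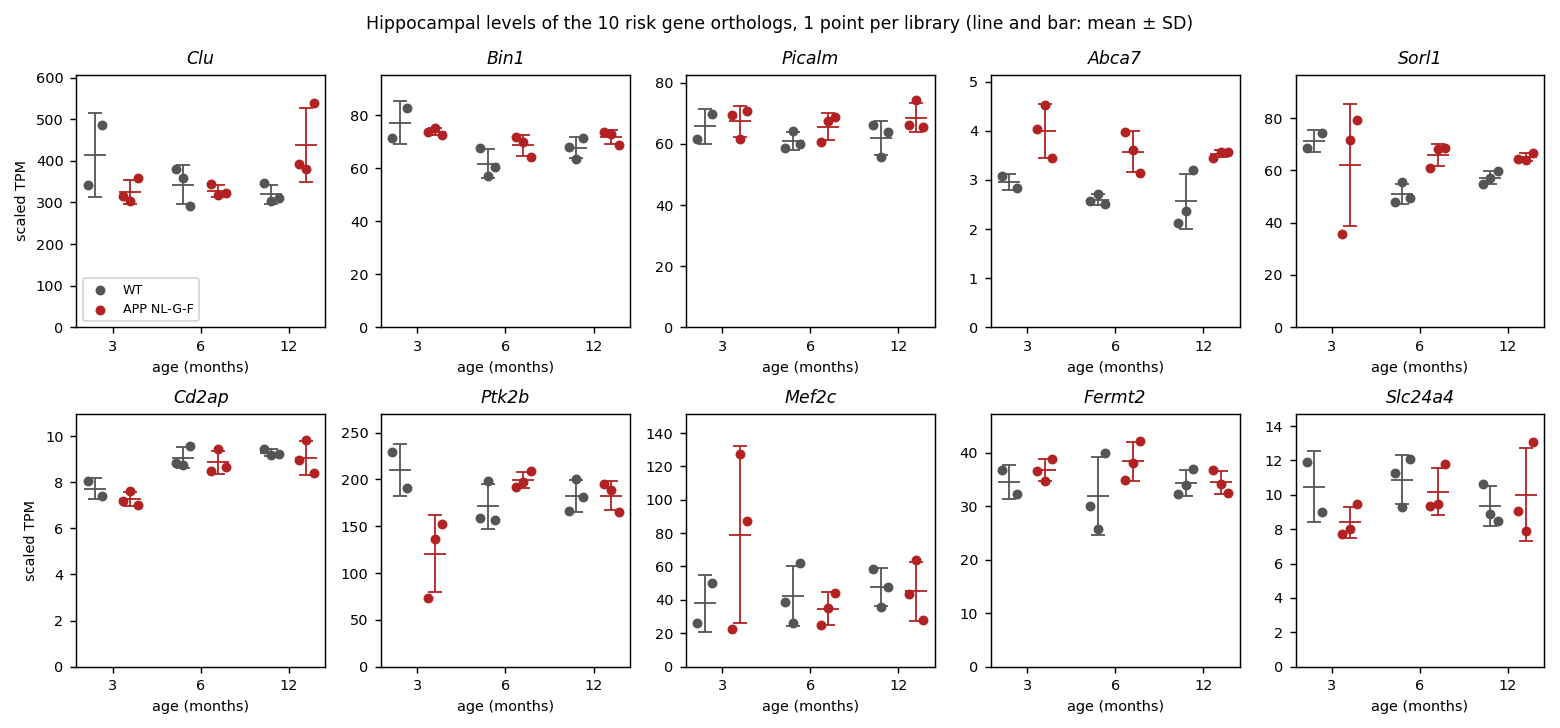
Scaled TPM of each member in hippocampus against age in months, with 1 point per library, WT in grey, APP NL-G-F in red, and a line and bar for the mean and SD. Abca7 points of APP NL-G-F lie above those of WT at each age, and the Ptk2b points of APP NL-G-F at 3 months, 73.7 to 152, lie below those of every other library.

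The first question was whether the risk gene orthologs differ between APP NL-G-F and WT hippocampus at each age. None of the 10 passed the test at any age (limma on log2(scaled TPM + 1), Benjamini-Hochberg over 17720 genes, adjusted p threshold 0.05). At 3 months 0 of 10 members were called against 0.299% of all genes, and 1 member had an unadjusted p below 0.05 against 13.3% of all genes. At 6 months the counts were 0 of 10, against 1.51% called, and 1 unadjusted, against 16.9%. At 12 months they were 0 of 10, against 0.451% called, and 2 unadjusted, against 6.95%. In the contrast averaged over the 3 ages 0 of 10 were called, against 0.22%, and 1 was below the unadjusted level, against 12.2%. Ranges of APP NL-G-F and WT did not overlap for 1 member higher (Abca7) and 1 lower (Ptk2b) at 3 months, against 14.1% and 13.0% of all genes. They did not overlap for 2 higher (Abca7 and Sorl1) and 0 lower at 6 months, against 11.0% and 10.2%, and for 3 higher (Abca7, Clu and Sorl1) and 0 lower at 12 months, against 8.78% and 6.7%. The median log2 change of the members was -0.07 at 3 months, 0.13 at 6 months and 0.08 at 12 months, where the median of all genes was 0.01, 0.00 and 0.00. The 95% intervals of the 12-month differences extended from 0.20 on either side for Bin1 to 1.12 for Mef2c, so differences of these sizes were not resolved.

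**Figure D2:**
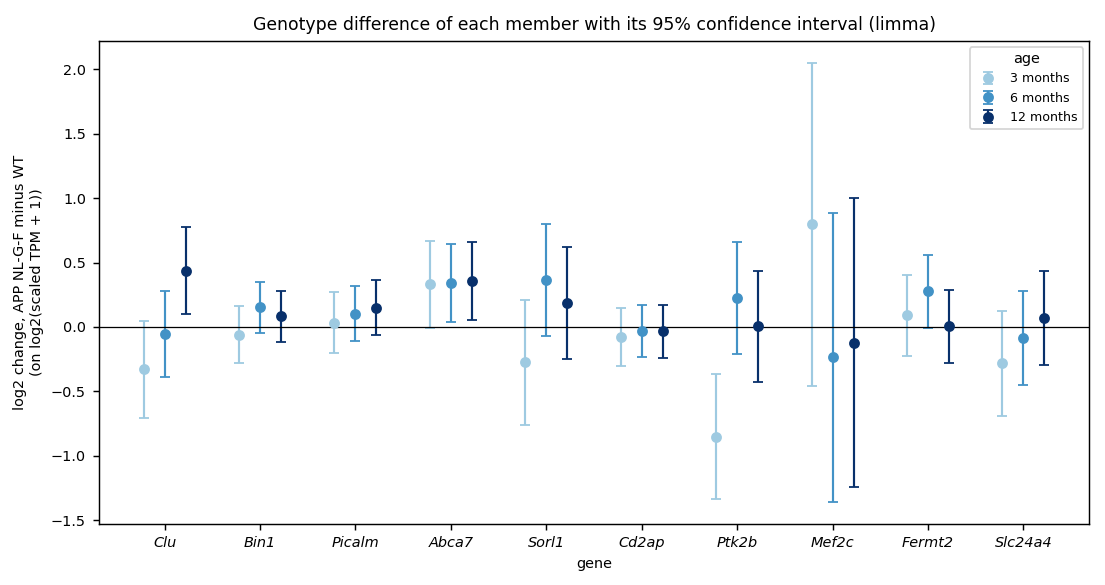
The log2 difference between APP NL-G-F and WT hippocampus (y axis, on log2(scaled TPM + 1)) for each member (x axis) at 3, 6 and 12 months, with 95% confidence intervals from limma. Abca7 sits at 0.33, 0.34 and 0.36, Ptk2b at -0.85 at 3 months, and the intervals of Mef2c are the widest.

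Among the lipid-handling members, Abca7 (chr10:79996494-80015572) was the gene whose genotypes did not overlap at any age. At 3 months its level was 4.03, 4.54 and 3.44 scaled TPM in APP NL-G-F and 3.08 and 2.84 in WT. At 6 months it was 3.99, 3.61 and 3.14 in APP NL-G-F and 2.57, 2.72 and 2.51 in WT. At 12 months it was 3.45, 3.57 and 3.57 in APP NL-G-F and 2.13, 2.37 and 3.20 in WT. Each APP NL-G-F library thus lay above each WT library of its age, with the narrowest gap at 12 months. The log2 difference was 0.33 at 3 months, 0.34 at 6 months and 0.36 at 12 months, with limma adjusted p of 0.387, 0.234 and 0.568. Averaged over the ages it was 0.34 (SE 0.08, 95% interval 0.16 to 0.52), with an unadjusted p of 0.00107 and an adjusted p of 0.106 in limma. Separation at all 3 ages in this direction was found for 41 of 17720 genes (0.231%), and in the opposite direction for 16 (0.0903%). At 3 months both genotypes carried Xist, with 2 WT libraries. At 6 and 12 months genotype and the difference in Xist cannot be told apart for Abca7 either. The separation depended on the scaling. In TPM as deposited the lowest APP NL-G-F value was 3.30 against 3.43 and 3.46 in WT at 3 months. At 12 months it was 3.45 against a highest WT value of 3.55. The averaged log2 difference became 0.50 with a limma adjusted p of 0.0236. Without scaling, the median of all genes in that contrast was 0.184 and 7.58% of all genes were called, against 0.22% after scaling.

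Clu (chr14:65968483-65981547) separated by genotype at 12 months. It measured 392, 381 and 540 scaled TPM in APP NL-G-F and 346, 304 and 311 in WT. All 3 APP NL-G-F values were above the WT values, and replicate 3 stood well above the other two. The log2 difference was 0.43 (SE 0.16, 95% interval 0.10 to 0.77, limma adjusted p 0.483), and 0.28 without APP NL-G-F replicate 3. At 3 months the order was the other way, with 316, 304 and 358 in APP NL-G-F against 343 and 485 in WT, and the groups overlapped. The genotype difference of Clu at 12 months exceeded that at 3 months by 0.76 on the log2 scale (95% interval 0.26 to 1.27), with an unadjusted p of 0.00591 and an adjusted p of 0.269 in limma. Leaving out 1 library at a time, this value ran from 0.51 to 1.01. The 3-month difference was -0.327 over all libraries and -0.075 without WT replicate 2. At 12 months the summed reactive astrocyte markers (Gfap, Vim, Serpina3n and C4b) were 584 to 735 scaled TPM in APP NL-G-F and 179 to 184 in WT, while the summed general astrocyte markers were 1133 to 1184 and 1087 to 1143. Other sums also lay higher in APP NL-G-F without overlap at that age. Choroid plexus markers were 1434 to 1661 against 420.8 to 1318. General microglia markers were 225 to 233 against 117 to 143, and activated microglia markers 458 to 562 against 162 to 179. Oligodendrocyte markers were 1046 to 1172 against 924 to 952, and endothelial markers 32.9 to 38.6 against 17.5 to 28.8. The summed heat shock genes were 1439 to 1494 against 1193 to 1336. Their part in the Clu values was not tested. In bulk tissue, fewer or more cells of a type and less or more RNA per cell cannot be told apart.

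Sorl1 and the endocytic members showed small differences. Sorl1 (chr9:41964720-42124297), the sorting receptor, measured 60.9, 68.1 and 68.7 scaled TPM in APP NL-G-F and 48.1, 55.6 and 49.4 in WT at 6 months. At 12 months it measured 64.3, 64.2 and 66.9 in APP NL-G-F and 54.7, 57.3 and 59.6 in WT. The genotypes did not overlap at either of these ages, at which they also differed in Xist. At 3 months Sorl1 was 35.5, 71.6 and 79.2 in APP NL-G-F and 68.4 and 74.2 in WT, so the APP NL-G-F values enclosed the WT values, and the low one belonged to the library high in thalamus markers. The log2 difference was 0.36 at 6 months (95% interval -0.07 to 0.80, limma adjusted p 0.395) and 0.18 at 12 months (95% interval -0.25 to 0.62, adjusted p 0.968). Leaving out APP NL-G-F replicate 1 at 3 months, whose spread enters the common error, gave the same 6-month difference of 0.36 with an adjusted p of 0.0395.

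Bin1, Picalm and Cd2ap overlapped between genotypes at every age. Bin1 lay between 57.0 and 82.8 scaled TPM, with log2 differences of -0.06, 0.15 and 0.08 at 3, 6 and 12 months. Picalm (chr7:90130213-90213465) lay between 55.6 and 74.3, with differences of 0.03, 0.10 and 0.15. Cd2ap (chr17:42792951-42876665) lay between 7.03 and 9.84, with differences of -0.08, -0.03 and -0.03, and its 12-month interval ran from -0.24 to 0.17. Beside them 15 clathrin, adaptor, dynamin and retromer genes were listed, such as Cltc, Ap2a1, Dnm1 and Vps35. Of these, 0 were called by limma in any of the 11 hippocampal contrasts, which called 0% to 3.34% of all genes. In each contrast 0 to 4 of the 15 had an unadjusted p below 0.05, against 6.77% to 18.7% of all genes. The count of 4 was in the genotype effect of 6 against 3 months, where the share was 18.6%.

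Ptk2b (chr14:66153257-66281052), the neuronal calcium-responsive kinase, had the largest difference among the members whose groups did not overlap, and it was found at 3 months alone. The 3 APP NL-G-F libraries measured 73.7, 137 and 152 scaled TPM and the 2 WT libraries 229 and 190. All 3 values were below both WT values, and the lowest again belonged to replicate 1. The log2 difference was -0.85 (SE 0.23, 95% interval -1.34 to -0.37), with an unadjusted p of 0.00194 and an adjusted p of 0.122 in limma. At 6 months Ptk2b was 192, 198 and 209 in APP NL-G-F against 158, 199 and 157 in WT, and at 12 months 195, 188 and 166 against 166, 200 and 181. The genotypes overlapped at both of these ages. The genotype difference at 6 months exceeded that at 3 months by 1.08 (95% interval 0.43 to 1.73, limma adjusted p 0.0822, and 0.0364 without APP NL-G-F replicate 3 at 3 months). Without APP NL-G-F replicate 1 the 3-month difference was -0.53 with an adjusted p of 0.181, and without replicate 3 it was -1.05 with an adjusted p of 0.0306, so which library is kept decides the size and the call. Within the APP NL-G-F group replicate 1, lowest in Ptk2b, was high in thalamus markers, and replicates 2 and 3 were high in immediate-early genes. The summed immediate-early genes of the 2 WT libraries were 160.5 to 209.8. Over all 3 APP NL-G-F libraries at 3 months the summed oligodendrocyte markers were higher, 1467 to 2487 against 1365 to 1439 in WT. Their summed astrocyte markers were lower, 933 to 1032 against 1048 to 1109, and their striatum markers were 58.2 to 177 against 57.8 to 60.1. The part of these markers in the Ptk2b values was not tested.

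Mef2c (chr13:83504034-83667080), the transcription factor, varied most between libraries of the same group. At 3 months APP NL-G-F measured 22.4, 128 and 87.4 scaled TPM and WT 25.9 and 49.9. The 2 high values belonged to the libraries with high immediate-early genes, and the group enclosed both WT values. The summed striatum markers of this APP NL-G-F group also varied, from 58.2 to 177, and the part of these markers was not tested. At the later ages all 12 libraries lay between 24.6 and 63.6. The log2 difference was 0.80 at 3 months with a 95% interval of -0.46 to 2.05, which spans both directions, and it ran from 0.30 (without APP NL-G-F replicate 2) to 1.53 (without replicate 1) when 1 library was left out. Fermt2 (chr14:45458795-45530118), the integrin activator, lay between 25.7 and 42.2 scaled TPM and overlapped at every age. Its widest difference was 0.28 at 6 months (95% interval -0.01 to 0.56, limma adjusted p 0.313), which became 0.14 without WT replicate 2 and 0.45 without WT replicate 3. Slc24a4 (chr12:102128733-102267091), the exchanger, lay between 7.75 and 13.1 and overlapped at every age as well, with differences of -0.28, -0.09 and 0.07.

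Age was compared within each genotype, and here too none of the 10 members passed. Between 6 and 3 months in APP NL-G-F 0 of 10 were called against 2.19% of all genes (2 members at an unadjusted p below 0.05, against 18.7%). Between 12 and 3 months 0 of 10 were called against 3.34% (3 unadjusted, against 16.5%), and between 12 and 6 months 0 of 10 against 0.564% (1 unadjusted, against 11.3%). In WT between 12 and 6 months 0 of 10 members and 0% of all genes were called (0 unadjusted, against 6.77%). The 3 unadjusted members between 12 and 3 months were Ptk2b, Clu and Cd2ap, with log2 differences of 0.66, 0.41 and 0.28 and limma adjusted p of 0.0996, 0.196 and 0.137. Without 12-month replicate 3 the Clu difference was 0.25. For Ptk2b between 6 and 3 months in APP NL-G-F the difference was 0.79 with an adjusted p of 0.0576, and leaving out 3-month replicate 2 or 3 brought it to 0.0481 or 0.022, whereas without replicate 1 the difference was 0.47 with an adjusted p of 0.108. The change between 12 and 3 months had an adjusted p of 0.0319 without 3-month replicate 3, and without replicate 1 it was 0.34 with an adjusted p of 0.228. Beside these changes, limma called 7 of 8 oligodendrocyte markers lower between 6 and 3 months in APP NL-G-F and 4 of 8 between 12 and 3 months. In WT the summed oligodendrocyte markers were also highest at 3 months, 1365 to 1439, against 730.9 to 961.1 at 6 months and 923.5 to 951.8 at 12 months. The part of these markers was not tested. The 3-month APP NL-G-F group is shared by the APP NL-G-F contrasts against 3 months and by the genotype contrast at that age. Cd2ap was 7.03 to 7.63 scaled TPM in APP NL-G-F at 3 months, 8.48 to 9.45 at 6 months and 8.39 to 9.84 at 12 months. In WT it was 7.40 to 8.06 at 3 months, 8.78 to 9.61 at 6 months and 9.19 to 9.48 at 12 months. In both genotypes the 3-month Cd2ap values lay below the later ones, and how many of all genes did so was not counted. In WT the 3-month libraries were also those with Xist.

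Whether the genotype difference itself changed with age was tested in the same fit. Of the 10 members 0 were called between 6 and 3 months, against 1.53% of all genes (1 unadjusted, against 18.6%). Between 12 and 3 months 0 were called, against 0.0734% (2 unadjusted, against 9.98%). Between 12 and 6 months 0 were called, against 0.0226% (1 unadjusted, against 10.1%). The unadjusted members were Ptk2b in the first, Ptk2b and Clu in the second and Clu in the third.

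Other genes near Alzheimer risk variants, many of them expressed by microglia, are set beside the members, from a list of 34 orthologs of which 25 were abundant enough to test. At 3 and 6 months 0 of 25 passed in APP NL-G-F against WT by limma, with 3 and 2 at an unadjusted p below 0.05, against 13.3% and 16.9% of all genes. At 12 months 2 of 25 passed, against 0.451% of all genes, and 12 of 25 had an unadjusted p below 0.05, against 6.95%. Both genes that passed rose. Grn, the lysosomal progranulin, was 39.1 to 43.0 scaled TPM against 21.9 to 23.9 in WT (log2 change 0.82, limma adjusted p 0.023). The protease Ctsb was 115 to 130 against 83.2 to 88.6 (0.50, adjusted p 0.0102). Both ranges were clear of WT. Trem2, the microglial receptor, measured 13.0 to 21.1 against 3.66 to 5.98 without passing (1.59, adjusted p 0.232). Between 12 and 3 months in APP NL-G-F 7 of 25 rose (Trem2, Cd33, Abi3, Grn, Ctsh, H2-Ab1 and H2-Eb1) and 0 fell, against 3.34% of all genes called in either direction. Their log2 changes ran from 0.83 for Cd33 to 2.65 for the antigen-presenting gene H2-Ab1, with limma adjusted p from 0.00264 to 0.0465. An unadjusted p below 0.05 was found for 14 of 25, against 16.5% of all genes. Between 12 and 6 months Ctsb (0.54) and Ctsh (1.32) rose, where 0.564% of all genes were called. Between 6 and 3 months Tspan14 fell (-0.55, limma adjusted p 0.0404), where 2.19% were called. Averaged over the ages Ctsb rose in APP NL-G-F against WT (0.26, limma adjusted p 0.0484), where 0.22% of all genes were called. The median log2 change of the 25 genes was 0.51 at 12 months in APP NL-G-F against WT and 0.59 between 12 and 3 months, against 0.08 and 0.09 for the 10 members and 0.00 for all genes in both. At 12 months the summed activated microglia markers were 458 to 562 scaled TPM in APP NL-G-F and 162 to 179 in WT, and the summed general microglia markers 225 to 233 and 117 to 143. Their part in these gene values was not tested.

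**Figure D3:**
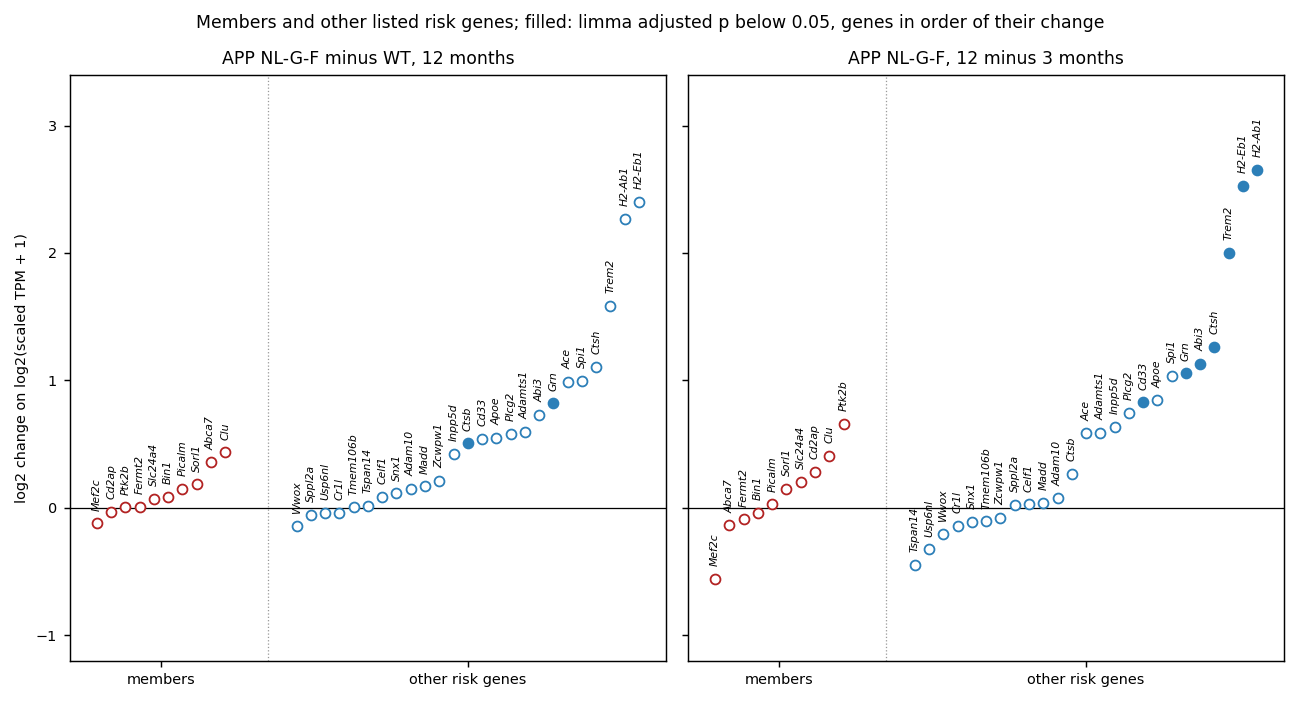
The log2 change (y axis, on log2(scaled TPM + 1)) of the 10 members and of the 25 tested other risk genes, each in order of its change, for APP NL-G-F minus WT at 12 months and for 12 minus 3 months in APP NL-G-F. Filled points passed limma at an adjusted p below 0.05: 0 of 10 members in either panel, and 2 and 7 of the 25 other genes.

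The relatives of the members give their families' levels in the same tissue. Of 21 paralogs listed, 17 were tested, and 1 passed in any contrast of genotype or age: Bin2, a Bin1 relative known from blood-derived cells and microglia, rose between 12 and 3 months in APP NL-G-F, from a median of 1.31 to one of 4.40 scaled TPM, with no overlap (log2 change 1.06, limma adjusted p 0.0181). The corresponding change of Bin1 was -0.04 (95% interval -0.24 to 0.16), and 3.34% of all genes were called in this contrast. Of the 5 integrin partners of Fermt2, Itgb1 fell between 6 and 3 months in APP NL-G-F (log2 change -0.46, limma adjusted p 0.037). The change of Fermt2 was 0.06 (95% interval -0.23 to 0.34), and 2.19% of all genes were called in this contrast.

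HT-22 cells were then set beside hippocampus by scaling all 31 libraries together. The neuron markers Rbfox3, Snap25, Syt1 and Nefl were at 0 in all 14 HT-22 libraries, and the sum over 8 neuron markers was 0.0667 to 1.26 scaled TPM against 1778 to 2868 in hippocampus on each system's own scaling. In these cells 4 members were listed at 0 in most or all libraries. Sorl1 and Slc24a4 were listed at 0 in all 14 libraries, Clu was listed at 0 in 12 of 14 with a highest value of 0.258, and Ptk2b was listed at 0 in 13 of 14 with a highest value of 0.081. The WT hippocampal medians on this scale were 75.0 for Sorl1, 13.2 for Slc24a4, 458 for Clu and 248 for Ptk2b. A value of 0 in all HT-22 libraries was found for 922 of 9788 protein-coding genes (9.42%) with a mean of at least 5 TPM in hippocampus, and 15 housekeeping genes were never at 0.

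Of the 10 members, 10 differed between HT-22 cells with reverse peptide and scramble LNA and WT hippocampus (2 higher, 8 lower), where limma called 77.8% of 19517 genes, 32.1% higher and 45.8% lower. Abca7 was higher in HT-22, at 11.5 to 18.3 scaled TPM over all 14 libraries against 2.83 to 4.22 in WT hippocampus (log2 change 1.73, SE 0.11, adjusted p 1.03e-13). Cd2ap was also higher, at 24.0 to 34.9 against 10.0 to 12.9 (1.16, SE 0.07, adjusted p 9.77e-14). The members with the 2 lowest medians in hippocampus thus had higher levels in the cell line. Bin1 was lower, at 11.1 to 28.5 against 74.4 to 112 (-2.51, SE 0.15), and Mef2c was lower, at 0.186 to 0.739 against 34.5 to 83.0 (-5.27, SE 0.31). Picalm, at 56.8 to 76.8 against 75.1 to 94.3 (-0.36, adjusted p 0.000161), and Fermt2, at 24.4 to 54.4 against 33.5 to 53.8 (-0.57, adjusted p 0.00461), were lower on this scale. Both turned to the opposite direction in TPM as deposited, at 0.73 and 0.50, where the median of all genes was 0.76 in place of -0.21. Tissue and cell line differ in every other respect as well, which cannot be told apart here.

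**Figure D4:**
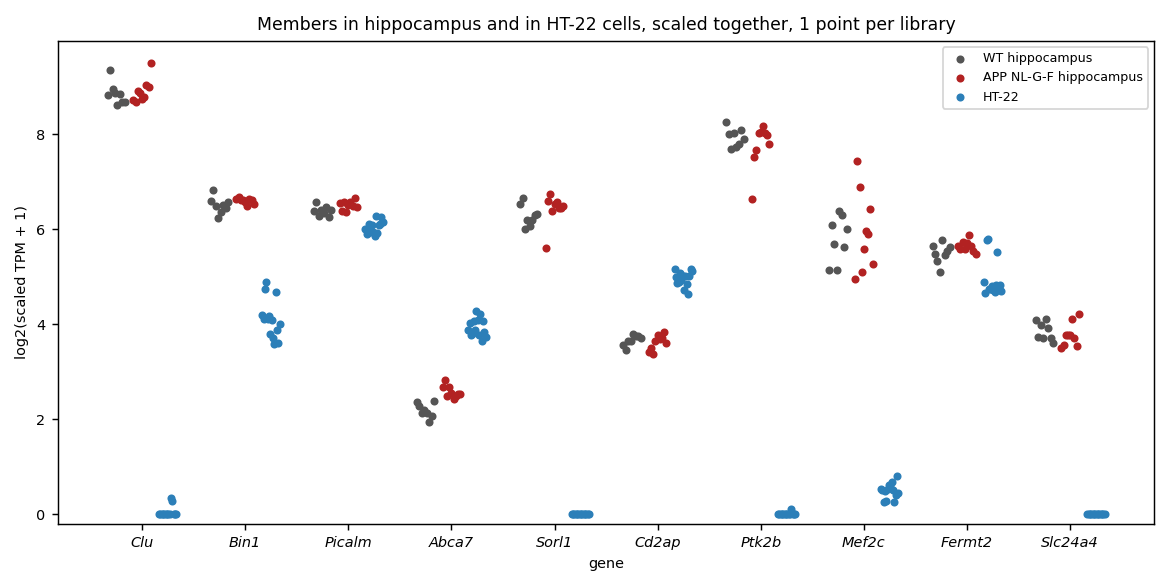
The log2(scaled TPM + 1) of each member in WT hippocampus (8 libraries), APP NL-G-F hippocampus (9) and HT-22 cells (14), scaled together, with 1 point per library. Abca7 and Cd2ap lie higher in HT-22, Clu, Sorl1, Ptk2b, Slc24a4 and Mef2c lie at or near 0, and Picalm and Fermt2 lie close to their hippocampal levels.

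The members' relatives were compared in the same way. Sh3kbp1, the paralog of Cd2ap and also an adaptor of endocytosis, was higher in HT-22 with 40.5 to 66.5 scaled TPM over all 14 libraries against 9.71 to 18.7 in WT hippocampus (log2 change 1.81, limma adjusted p 1.05e-10). In total 16 of the 17 tested paralogs passed, 1 higher and 15 lower on this scale. The neuronal relatives Snap91, of Picalm, and Slc24a2, of Slc24a4, were listed at 0 in all 14 HT-22 libraries against WT medians of 123 and 187. Abca1, the relative of Abca7, was lower at 0.080 to 0.245 against 12.0 to 15.7, opposite to Abca7. Sort1 and the 3 Sorcs receptors of the Sorl1 family were at 0.134 or below in every HT-22 library. Ptk2, the kinase related to Ptk2b, measured 41.6 to 53.2 against 53.8 to 64.4 (-0.40, limma adjusted p 0.000544), and turned to the opposite direction in TPM as deposited, at 0.68. The transcription factors Mef2a and Mef2d were lower, at medians of 19.4 and 17.3 against 63.8 and 58.8.

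Within HT-22 the treatments were compared over the 5 members with a mean of at least 1 scaled TPM: Bin1, Picalm, Abca7, Cd2ap and Fermt2. The targeted gene, Hsf1, measured 53.0, 42.8, 61.4 and 56.8 scaled TPM with scramble and 52.2, 42.7 and 48.5 with anti-Hsf1 LNA under reverse peptide (log2 change -0.15, limma adjusted p 0.959). Under amyloid beta 42 it measured 48.6, 61.7, 64.0 and 71.2 with scramble and 43.2, 51.2 and 46.5 with anti-Hsf1 (-0.37, 95% interval -0.68 to -0.06, adjusted p 0.524). The Hsf1 RNA level thus did not pass the test in either arm. For amyloid beta 42 against reverse peptide under scramble 0 of 5 members were called in limma, with 0% of 17205 genes called and 0 members against 4.96% of genes at an unadjusted p below 0.05. Under anti-Hsf1 the same comparison gave 0 of 5, 0% called, and 0 unadjusted against 4.64%. For anti-Hsf1 against scramble under reverse peptide it was 0 of 5, 0% called, and 1 unadjusted against 3.63%. Under amyloid beta 42 it was 0 of 5, with 0.0232% of genes called, and 0 unadjusted against 9.03%. The interaction of peptide and LNA gave 0 of 5, 0% called, and 0 unadjusted against 5.13%.

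The 1 unadjusted member was Cd2ap, at 36.9, 45.3, 40.1 and 34.2 scaled TPM with reverse peptide and scramble and 46.0, 50.4 and 49.0 with reverse peptide and anti-Hsf1. These groups did not overlap (log2 change 0.31, 95% interval 0.07 to 0.55, limma unadjusted p 0.0147, adjusted p 0.959), as for 3.07% of all genes in this direction. The lowest value, 34.2, belonged to 1 of the 3 libraries with high immediate-early genes, and without these libraries the change was 0.24 with an adjusted p of 0.948. Abca7, 16.4 to 26.5 over all 14 libraries, overlapped between treatments in all 4 pairwise comparisons. Picalm, 82.5 to 112, overlapped in 3 of them, and under anti-Hsf1 it was 87.3 to 97.8 with amyloid beta 42 and 99.4 to 109.5 with reverse peptide, without overlap, as for 9.22% of all genes in this direction (log2 change -0.19, 95% interval -0.44 to 0.07). For Picalm the 95% interval of amyloid beta 42 against reverse peptide under scramble was -0.25 to 0.19.

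Among the 5 tested members, Bin1 and Fermt2 differed most between libraries. Their highest values belonged to the 3 libraries with high immediate-early genes, whose part in them was not tested. Bin1 measured 25.1, 23.8, 37.1 and 41.2 scaled TPM with amyloid beta 42 and scramble and 23.1, 17.5, 16.1 and 35.3 with reverse peptide and scramble. Fermt2 measured 41.8, 35.4, 77.0 and 78.7 in the first group and 37.1, 35.5, 39.4 and 64.2 in the second. In these 3 libraries Bin1 was 35.3 to 41.2 against 16.1 to 25.1 in the other 11, and Fermt2 was 64.2 to 78.7 against 35.4 to 41.8, so neither gene overlapped. This split was chosen after the values were seen and has no test, and 15.9% of 17205 genes lay higher and 11.7% lower without overlap in it. Relative depth was 1.63 and 1.2 in amyloid beta 42 with scramble replicates 3 and 4. It was 2.6 in reverse peptide with scramble replicate 4 and 0.72 to 1.21 in the other 11, and its part was not tested. The summed integrin partners of Fermt2 were 672 to 709 against 456 to 511, the summed heat shock genes 2985 to 3213 against 2390 to 2684, and the cytoskeletal gene Actb was 2651 to 2799 against 1099 to 1512. The summed astrocyte markers, 139 to 154 against 66.8 to 93.4, and reactive astrocyte markers, 941 to 996 against 421 to 724, also lay apart. In HT-22 these sums rest on few genes. Only 3 of 8 astrocyte and 1 of 4 reactive astrocyte markers were abundant enough to test, and Aqp4, Slc7a10 and Serpina3n were at 0 throughout. The log2 difference between amyloid beta 42 and reverse peptide under scramble was 0.48 for Bin1 and 0.35 for Fermt2 over all libraries (limma adjusted p 0.953 for both), and 0.37 and 0.04 without the 3 libraries. Leaving out 1 library at a time, the Fermt2 difference ran from 0.18 (without amyloid beta 42 replicate 4) to 0.56 (without replicate 2 of that group). For anti-Hsf1 against scramble under amyloid beta 42 it was -0.46 and -0.52 (adjusted p 0.57 and 0.558), and -0.13 and -0.02 without them.

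**Figure D5:**
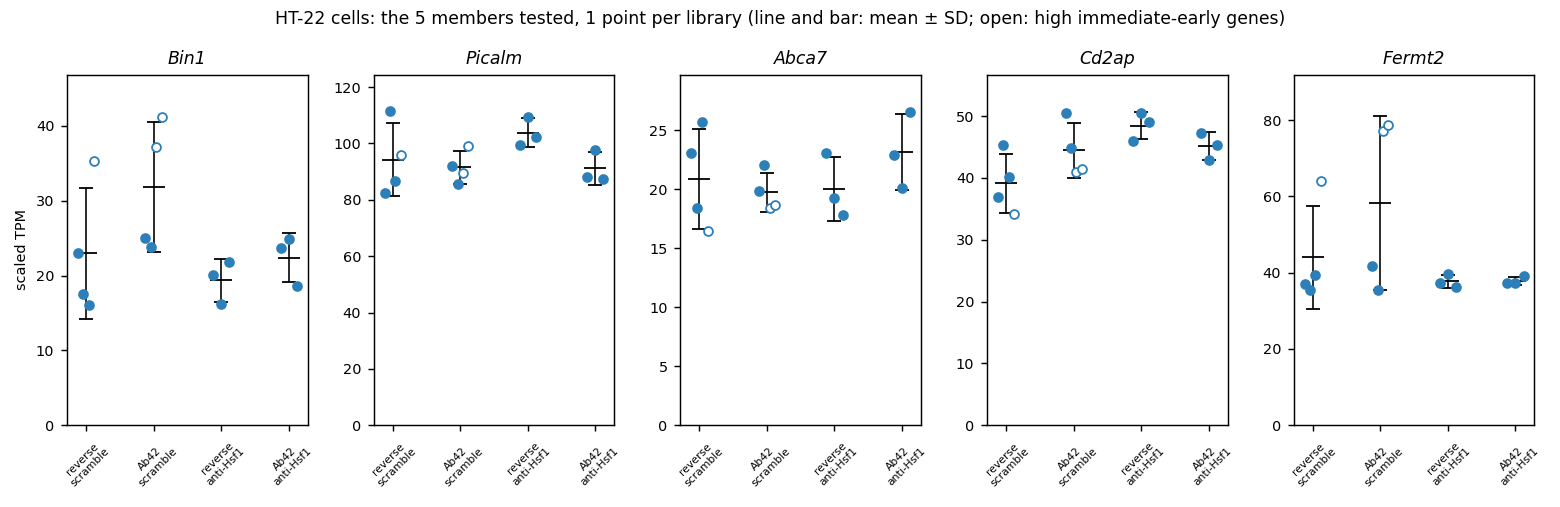
Scaled TPM of the 5 tested members in the 4 HT-22 groups, with 1 point per library and a line and bar for the mean and SD. Open points are the 3 libraries with high immediate-early genes, in which Bin1, 35.3 to 41.2, and Fermt2, 64.2 to 78.7, lie above all other libraries.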

How the data were processed

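Long RNA was measured in 17 hippocampal and 14 HT-22 libraries after ribosomal RNA depletion, per the labels' protocols. The deposited tables give for each gene a TPM, an FPKM and a coverage value. The submitters' processing notes name HISAT2 2.1.0, StringTie 1.3.4d, cutadapt 1.18, BWA 0.7.17, bedtools 2.26.0 and the builds mm10 and GRCm38. Nothing in these sources says how strand was treated. The deposited per-base coverage signal and FPKM served only to read relative depth. The count files of the other 31 samples, which cover short RNA, were not used.

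From the deposited TPM values, rows were summed per gene identifier and divided by median-of-ratios factors, separately over the 17, the 14 and all 31 libraries. Genes with a mean of at least 1 were fitted with limma 3.58.1 (trend, robust) in R 4.3.3 on log2(scaled TPM + 1), with a pseudocount of 1, which understates changes of low genes. Tests are 2-sided with Benjamini-Hochberg adjustment over all genes of a fit. The fit used 6 hippocampal groups, 4 HT-22 groups, or all 10. It was tested on simulated data. Members, gene lists, tests and alternatives were chosen with earlier results of these data known. Named genes are the 10 members in every contrast, and members of the lists of other risk genes, paralogs and partners where called, otherwise as counts; the genes most alike were to be named for members called between genotypes, of which there were none. Marker genes, Hsf1, Xist and Ddx3y serve as checks. Itgb1, the Trem2 values at 12 months and the HT-22 split by immediate-early genes were singled out after their values were seen. Replicate numbers name libraries and are not used as pairs. Alternatives were the scaling, pseudocount, filter, array weights, replicate block, samples in the fit and leaving out each library.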

Additional observations from a re-analysis of the deposited data

Results flagged for a closer look

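In the 14 groups of 4 HT-22 libraries examined by member, 3 had a library set apart from the other 3 by more than Dixon's 95% critical value, which chance does in about 1 in 20 groups. Fermt2 in reverse peptide with scramble replicate 4 was 64.15 scaled TPM, far above the other libraries of its group, and this is 1 of the 3 libraries with high immediate-early genes. Ptk2b in the same library was 0.1155, where the other 3 libraries were listed at 0, so that any value above 0 would stand apart and the comparison with chance has no meaning for it. That library also had the highest relative depth in HT-22, 2.6. Mef2c in amyloid beta 42 with scramble replicate 3 was 0.269, far below its group, and this library also had high immediate-early genes. The Ptk2b and Mef2c values are below 1 scaled TPM and were not tested between treatments. Of 35 tests of whether a member's effect differed between ages or between treatments, 0 passed in limma.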

How the results depend on the processing

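The number of members called between conditions was 0 in every contrast of hippocampus and HT-22, and it moved mainly with the scaling. In TPM as deposited the median of all genes shifted by up to 0.60 on the log2 scale between genotypes. The shift was 0.741 in the genotype effect of 6 against 3 months. It was -0.622 for anti-Hsf1 under amyloid beta 42 and -0.676 in the interaction. Without scaling, 9 members were called at 6 months (58.0% of all genes) and 1 averaged over ages (7.58%). Between 6 and 3 months 2 were called in APP NL-G-F (7.12%) and 8 in the genotype effect of 6 against 3 months (44.5%). In HT-22 the counts were 2 for amyloid beta 42 under anti-Hsf1 (24.3%) and 5 for anti-Hsf1 under amyloid beta 42 (50.7%). The interaction had 2 (25.3%). Quantile normalisation called 1 between 6 and 3 months in APP NL-G-F and 1 in the genotype effect of 6 against 3 months, a minimum of 5 TPM called 1 in the former, and array weights called 1 for anti-Hsf1 under amyloid beta 42 (10.5%). Leaving out 1 library at a time gave 0 to 1 members for genotype at 3 and 6 months, for APP NL-G-F 6 and 12 against 3 months and for the genotype effect of 6 against 3 months, each time by leaving out an APP NL-G-F library of 3 months. With the replicate block the counts stayed at 0 in all contrasts between conditions in hippocampus and in HT-22, and no block was fitted across systems. Same-numbered libraries share only a number: the mean correlation of their deviations was 0.000525 in hippocampus (40 pairs, -0.149 to 0.227) and 0.0426 in HT-22 (19 pairs, -0.217 to 0.576). TPM as deposited reversed Clu in the genotype effect of 12 against 6 months to -0.085, and Picalm and Fermt2 between systems to 0.725 and 0.5. In the comparison of systems quantile normalisation left 8 of 10, without Picalm (-0.05) and Fermt2 (-0.32). For 36 results of single members (21 in hippocampus, 10 between systems and the rest within HT-22), recomputed under each alternative, 991 values kept direction and call, 19 became called, 2 lost the call and 3 reversed. The causes were not tested. With 2 or 3 libraries a group, differences smaller than the stated intervals were not resolved, and the absolute depth is unknown.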
